A study of Rattus norvegicus with 25 samples.

Results

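The 4 genes of the CXCR3 chemokine system were followed across 25 rats: the ligand genes Cxcl9, Cxcl10 and Cxcl11 and the gene of their receptor, Cxcr3. They were found on the array by matching the RefSeq accession of each probe to a gene symbol, and all 4 were among the 12343 named genes tested, of 15443 named genes on the array. Each had 1 probe, printed as 2 spots per array. Male F344 rats, 5 per group, gave RNA of their esophageal epithelium, and each rat was measured on 1 single-colour (Cy3) Agilent array. The alpha, delta and gamma-enriched groups received N-nitrosomethylbenzylamine (NMBA), a nitrosamine that gives rise to esophageal tumours in rats, together with alpha-tocopherol, delta-tocopherol or a preparation enriched in gamma-tocopherol, which are forms of vitamin E. The NMBA group received the nitrosamine on a normal diet, and the Control group ate the normal diet without NMBA. Nothing in the labels gives the ages, doses, routes or times.

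CXCL9, CXCL10 and CXCL11 are small secreted proteins that attract lymphocytes by binding CXCR3, a G protein-coupled receptor carried mainly by activated T cells and natural killer cells. In humans and mice they are made by macrophages, endothelial cells, fibroblasts and epithelial cells exposed to interferon gamma, and Cxcl10 also responds to type I interferons and to NF-kB. Because CXCR3-bearing T cells make interferon gamma themselves, ligands and receptor often move together in inflamed tissue.

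The promoters of the ligand genes are shown because these genes lie side by side and moved together. In RefSeq on the GRCr8 assembly the ligand genes stood in the order Cxcl11, Cxcl10, Cxcl9 on the plus strand of chromosome 14, with no protein-coding gene between them. The 250 bases before each annotated start were chr14:15973478-15973727 for Cxcl11, chr14:15988816-15989065 for Cxcl10 and chr14:16006916-16007165 for Cxcl9. Capitals mark letters that matched a searched motif on either strand: the interferon-stimulated response element (ISRE, TTTC and TTTC with any 2 bases between them), the gamma-activated site (GAS, TTCNNNGAA), the TATA box (TATAAA) and the NF-kB site.
Cxcl11: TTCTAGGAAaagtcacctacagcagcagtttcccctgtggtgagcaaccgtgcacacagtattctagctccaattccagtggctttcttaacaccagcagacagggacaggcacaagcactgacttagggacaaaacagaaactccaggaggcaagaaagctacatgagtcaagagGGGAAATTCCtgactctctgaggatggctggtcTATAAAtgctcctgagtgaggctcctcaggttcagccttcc
Cxcl10: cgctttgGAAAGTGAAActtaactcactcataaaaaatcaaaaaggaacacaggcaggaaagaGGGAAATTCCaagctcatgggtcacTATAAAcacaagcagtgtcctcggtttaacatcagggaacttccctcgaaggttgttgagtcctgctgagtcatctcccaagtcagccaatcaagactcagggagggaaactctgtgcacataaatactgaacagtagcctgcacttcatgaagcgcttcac
Cxcl9: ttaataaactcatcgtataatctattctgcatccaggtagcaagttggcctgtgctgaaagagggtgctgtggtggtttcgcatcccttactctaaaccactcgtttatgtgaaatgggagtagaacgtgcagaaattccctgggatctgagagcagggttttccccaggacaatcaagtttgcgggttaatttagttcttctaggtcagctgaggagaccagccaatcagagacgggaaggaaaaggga
In Cxcl10 the capitals are an ISRE match on the minus strand, 243 to 234 bases before the start, an NF-kB match 187 to 178 bases before it and a TATA match 162 to 157 bases before it. In Cxcl11 they are a GAS match 250 to 242 bases before the start, an NF-kB match 74 to 65 bases before it and a TATA match 41 to 36 bases before it. The Cxcl10 and Cxcl11 windows held the same letters at their NF-kB match. None of these letters was found in the Cxcl9 window, or in that of Cxcr3 (chrX:70886945-70887194, minus strand). Over 33469 promoters the same search found an ISRE in 3.41%, a GAS in 7.67%, a TATA box in 12.9% and an NF-kB site in 3.54%. Both an ISRE and an NF-kB site, as in Cxcl10, were found in 0.12%. Other combinations, such as the GAS and NF-kB matches of Cxcl11, were not counted. A match describes the letters and is not evidence of a bound factor.

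Between 70.6% and 79.8% of spots were well above background per array, and 0 spots were saturated. By group this share was 77.0% to 79.8% in alpha, 74.7% to 77.7% in delta, 72.4% to 78.0% in gamma-enriched, 70.6% to 75% in NMBA and 74.4% to 76.1% in Control. All 10 squamous epithelial markers tested, among them the keratin genes Krt5 and Krt14, were well above background on every array, and so were the 6 muscle and the 6 fibroblast markers. Slide 1 held alpha rats 1 to 5 and delta rats 1 to 3, and slide 2 held delta rats 4 and 5, the gamma-enriched rats and Control rat 1. Slide 3 held NMBA rats 1 to 4 and Control rats 2 to 5, and NMBA rat 5 was on slide 4. No slide held both NMBA and tocopherol rats, so between these groups slide and treatment cannot be told apart except through Control rat 1. The probes of all 4 genes were well above background on all 25 arrays. Levels are log2 signals relative to the 75th percentile of the same array, so that 0 is the 75th percentile; probes differ in brightness, and levels are compared between rats and not between genes.

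Setting NMBA against Control shows how the ligands and the receptor stood in rats given the nitrosamine. All 3 ligand genes and the receptor gene were higher in NMBA rats. Cxcl10 rose 20.6-fold, Cxcl9 12.2-fold, Cxcl11 9.6-fold and Cxcr3 3.73-fold, and all 4 passed the test, against 1.36% of all genes called higher. In this paragraph and those that follow, a gene is called when its p-value from limma, adjusted by Benjamini-Hochberg over all 12343 genes, is under 0.05.

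Cxcl10, the ligand with the largest change, stood at 0.27, −0.28, −0.93, −1.61 and −0.28 in NMBA rats 1 to 5, against −5.30, −5.23, −4.50, −4.55 and −5.07 in Control rats 1 to 5. Every NMBA rat lay above every Control rat. The difference was 4.36 ± 0.53 log2 units (limma moderated SE, n = 5 rats each, 95% interval 3.27 to 5.46, adjusted p = 4.25e-05), and by its size Cxcl10 ranked 2 among the genes tested.

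Cxcl9, a ligand that depends closely on interferon gamma, was at 2.39, 1.68, 1.76, 0.65 and 2.40 in NMBA rats 1 to 5, against −1.80, −2.45, −2.03, −1.38 and −1.53 in Control rats. The groups did not overlap here either. Its difference was 3.61 ± 0.51 (95% interval 2.55 to 4.67, limma adjusted p = 0.000341), rank 5 by size.

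Cxcl11, the ligand that binds CXCR3 most tightly in humans, had values of −0.96, −1.81, −1.92, −2.66 and −0.99 in NMBA rats and −5.76, −4.66, −4.59, −4.82 and −4.83 in Control rats. All NMBA values again exceeded all Control values, and the lowest Control value was that of rat 1, the Control rat placed on slide 2. The difference was 3.26 ± 0.43 (95% interval 2.37 to 4.15, limma adjusted p = 0.00014), rank 7 by size. Groups were separate in all 3 ligands, as they were, with NMBA higher, in 2.56% of genes.

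Cxcr3 measured −1.79, −2.15, −1.37, −3.43 and −1.74 in NMBA rats and −4.43, −4.17, −3.29, −4.12 and −3.96 in Control rats. NMBA rat 4 lay below Control rat 3, so the groups overlapped, and that rat was also the lowest NMBA rat for each ligand. The receptor's difference was 1.90 ± 0.42 (95% interval 1.03 to 2.77, limma adjusted p = 0.0183), rank 38 by size. Its call was lost without Control rat 1 (1.79, adjusted p = 0.0565) and without NMBA rat 1 (1.82, 0.0551), rat 3 (1.72, 0.0553) or rat 5 (1.81, 0.0637). Within slide 3, where 4 NMBA and 4 Control rats shared a slide, the ligands kept their calls at 4.20 for Cxcl10 (adjusted p = 0.00559), 3.46 for Cxcl9 and 2.89 for Cxcl11 (0.0102 each), and Cxcr3 was at 1.70 (0.152). With slide as a fixed block over all arrays, this difference came from the same slide 3 rats, so it is not a second check. In that fit 3 of the 4 genes were called, and Cxcr3 was not (1.70, limma adjusted p = 0.0966).

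**Figure D1:**
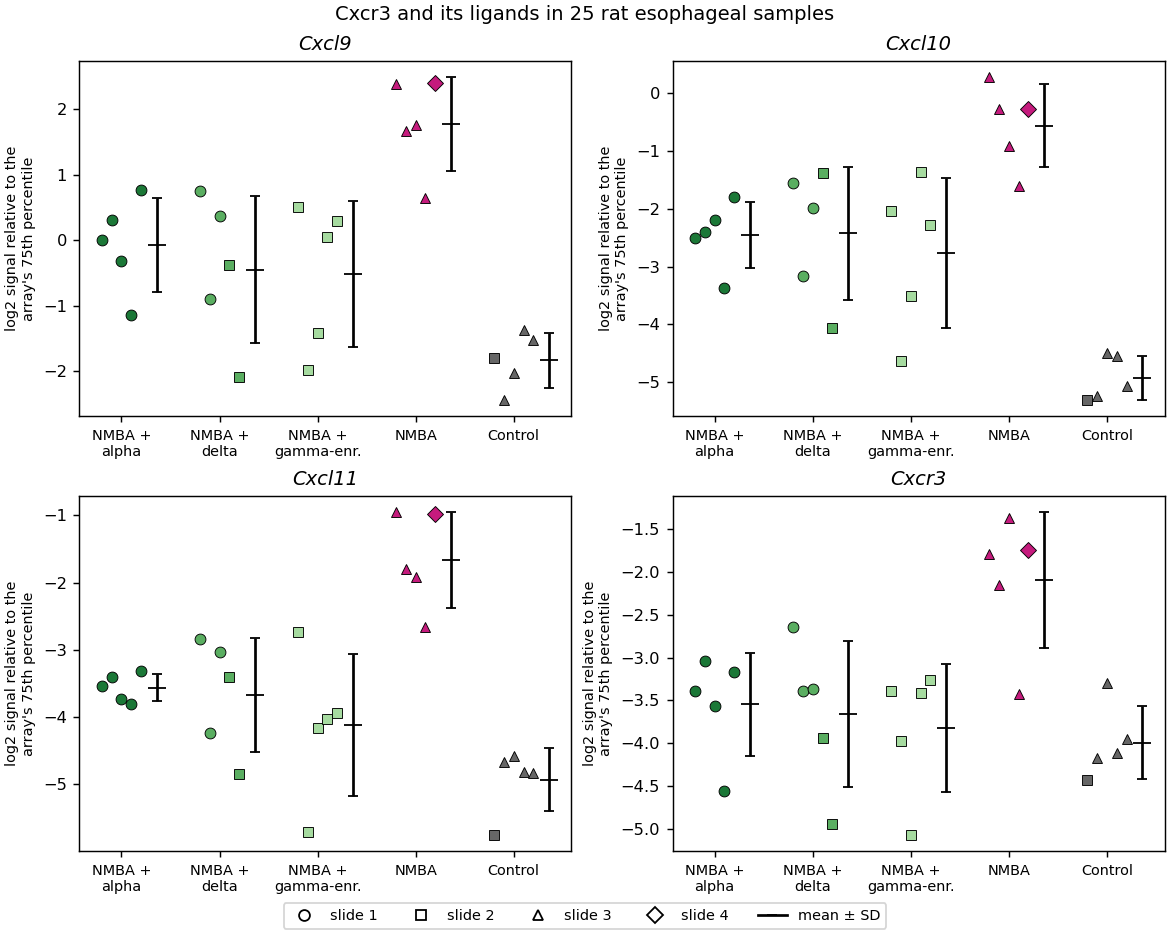
Log2 signal of Cxcl9, Cxcl10, Cxcl11 and Cxcr3 relative to each array's 75th percentile (vertical axis) in the 25 rats by group, 1 point per rat, with marker shape for the slide and a bar for the group mean ± SD (n = 5). The NMBA group has the highest mean and the Control group the lowest in all 4 panels, and the ligands do not overlap between these 2 groups.

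The comparisons of each tocopherol group with NMBA ask whether the chemokine system was lower when NMBA was given with a form of vitamin E. In all 3 groups every one of the 4 genes had a lower mean than in NMBA rats, at 0.183 to 0.365 of the NMBA level. In alpha rats the 3 ligands fell and Cxcr3 missed the threshold, against 2.54% of all genes called lower. In delta rats Cxcl9, Cxcl11 and Cxcr3 fell and Cxcl10 missed it, against 2.72%. In gamma-enriched rats all 4 fell, but there 8.34% of all genes were called lower and the median gene stood at −0.13 log2 units, against −0.03 for alpha and −0.07 for delta. These comparisons share the same 5 NMBA rats with each other and with the comparison above, so a high NMBA value enters all of them.

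Cxcl11 gave the cleanest separation. It stood at −3.54, −3.41, −3.73, −3.81 and −3.32 in alpha rats, −2.84, −4.23, −3.03, −3.40 and −4.84 in delta rats and −2.73, −5.71, −4.16, −4.03 and −3.94 in gamma-enriched rats, against a lowest NMBA value of −2.66. No rat of any tocopherol group reached the NMBA range. The gap was narrow for gamma-enriched rat 1, whose 2 spots (−2.59 and −2.88) overlapped those of NMBA rat 4 (−2.52 and −2.81). Groups lay apart in this direction in 3.05% of genes for alpha, 4.61% for delta and 5.88% for gamma-enriched. Its differences from NMBA were −1.89 for alpha (adjusted p = 0.017), −2.001 for delta (0.0236) and −2.45 for gamma-enriched rats (0.00317), each ± 0.43 (limma, SE, n = 5 rats each).

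Cxcl9 was at 0.01, 0.32, −0.32, −1.15 and 0.77 in alpha rats, 0.76, −0.89, 0.36, −0.37 and −2.10 in delta rats and 0.51, −1.99, −1.42, 0.05 and 0.29 in gamma-enriched rats, against a lowest NMBA value of 0.65. Alpha rat 5 and delta rat 1 exceeded NMBA rat 4, while the gamma-enriched rats all lay below the NMBA range. The differences from NMBA were −1.85 for alpha (adjusted p = 0.0444), −2.23 for delta (0.0248) and −2.29 for gamma-enriched rats (0.00778), each ± 0.51 by limma.

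Cxcl10 measured −2.50, −2.40, −2.20, −3.37 and −1.81 in alpha rats, −1.56, −3.16, −1.99, −1.38 and −4.06 in delta rats and −2.05, −4.63, −3.50, −1.37 and −2.28 in gamma-enriched rats, against a lowest NMBA value of −1.61. Alpha was separate from NMBA, but delta rats 1 and 4 and gamma-enriched rat 4 lay above NMBA rat 4. The differences were −1.89 for alpha (adjusted p = 0.0469), −1.86 for delta (0.0517, not called) and −2.20 for gamma-enriched (0.0114), each ± 0.53 by limma.

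Cxcr3 stood at −3.39, −3.04, −3.57, −4.57 and −3.17 in alpha rats, −2.64, −3.39, −3.37, −3.94 and −4.94 in delta rats and −3.39, −3.98, −5.08, −3.42 and −3.26 in gamma-enriched rats, against a lowest NMBA value of −3.43. Every tocopherol group overlapped NMBA through NMBA rat 4. The receptor's differences were −1.45 for alpha (adjusted p = 0.0518, not called), −1.56 for delta (0.0442) and −1.73 for gamma-enriched (0.0119), each ± 0.42 by limma.

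The calls against NMBA differed in how far they rested on single rats. All 4 gamma-enriched calls held whichever rat was left out. In alpha, Cxcl11 was the only 1 of the 4 genes still called without alpha rat 1, 2, 3 or 4 or NMBA rat 1, 2, 3 or 5 (limma adjusted p from 0.0595 to 0.115 for Cxcl9 and Cxcl10), and all 4 were called without NMBA rat 4 (Cxcr3 −1.79, 0.0167). In delta, 0 genes were called without delta rat 2 or NMBA rat 1, 2 or 3 (adjusted p from 0.0545 to 0.11 for the 3 lost calls). Only Cxcl11 was called without delta rat 5 (Cxcl9 −1.81, 0.0573), and Cxcr3 was also lost without delta rat 3 (−1.63, 0.0677), delta rat 4 (−1.49, 0.0801) or NMBA rat 5 (−1.47, 0.0773). Cxcl10 became called in delta without delta rat 1 (−2.08, 0.0413) or NMBA rat 4 (−2.12, 0.0293). With slide as a fixed block limma called 0 of the 4 genes in each tocopherol group (2 in alpha, 1 in delta and 1 in gamma-enriched at an unadjusted p under 0.05), and only 1 gene of all tested in each comparison. The blocked differences for alpha, delta and gamma-enriched were −3.05, −2.90 and −2.18 in Cxcl9, −1.84, −1.62 and −1.67 in Cxcl10, −1.44, −1.25 and −1.25 in Cxcl11, and −2.12, −1.71 and −1.09 in Cxcr3 (adjusted p from 0.508 to 0.998).

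**Figure D2:**
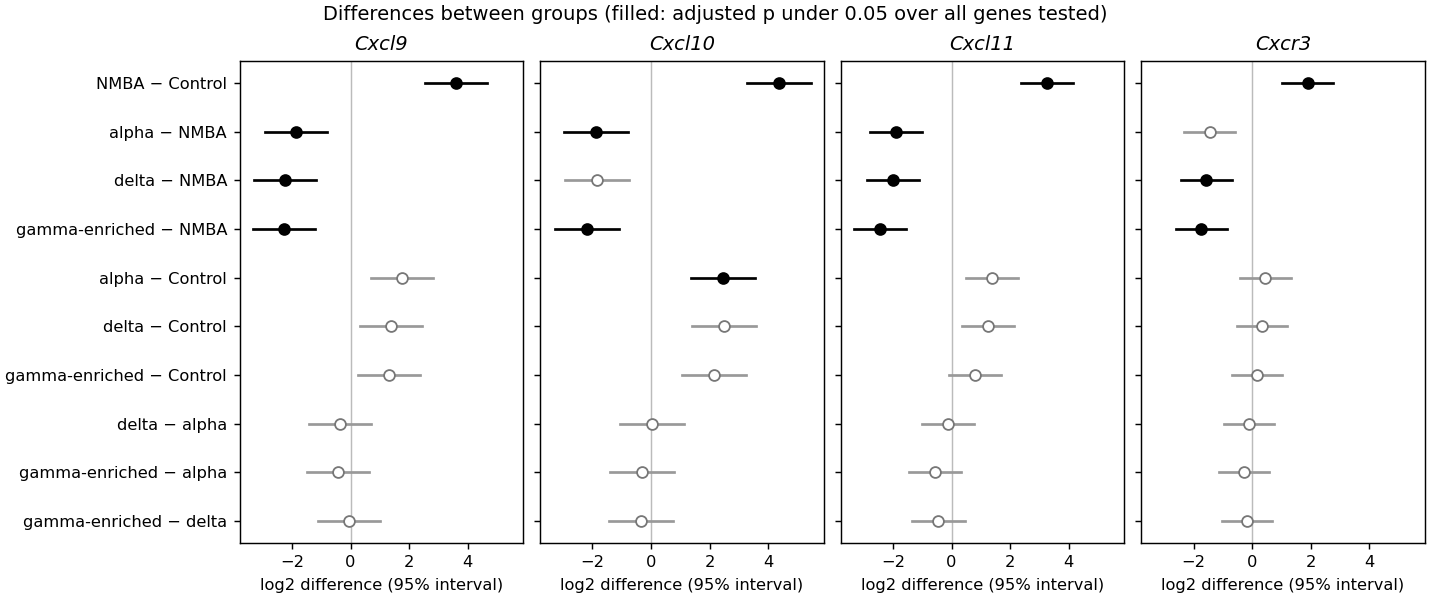
Log2 difference between groups with its 95% interval (horizontal axis) for each of the 4 genes in the 10 comparisons (rows), filled where the adjusted p is under 0.05. NMBA against Control lies right of 0 in all 4 genes, the tocopherol groups against NMBA lie left of 0, and the comparisons among tocopherols span 0.

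Against Control, the means of the 3 ligands were higher in every tocopherol group, by less than in NMBA rats. Cxcl10 was 5.55-fold higher in alpha rats than in Control (2.47 ± 0.53, limma adjusted p = 0.0283), the only 1 of the 4 genes called, against 0.535% of all genes called higher. In delta rats Cxcl10 was at 2.50 ± 0.53 (0.0506) and in gamma-enriched rats at 2.16 ± 0.53 (0.0619); limma called 0 of the 4 genes in either group, against 0.138% and 0.3% of all genes called higher. At an unadjusted p under 0.05 the counts were 3 of 4 in alpha, 3 of 4 in delta and 2 of 4 in gamma-enriched rats. Over all 12343 genes the counts of either direction at this cutoff were 1681, 1290 and 2301. The groups did not overlap in Cxcl9, Cxcl10 and Cxcl11 for alpha (2.44% of genes), in Cxcl10 for delta (1.67%) and in none for gamma-enriched (1.58%).

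Cxcl9 stood above Control by 1.76 in alpha (limma adjusted p = 0.098), 1.39 in delta (0.319) and 1.32 in gamma-enriched rats (0.185), each ± 0.51. Cxcl11 was at 1.37 (0.128), 1.26 (0.267) and 0.82 (0.313) in the same order, each ± 0.43. Cxcr3 was closest to Control, at 0.45 (0.697), 0.34 (0.816) and 0.17 (0.85), each ± 0.42. No alpha rat shared a slide with a Control rat, and the alpha call of Cxcl10 was lost with slide as a fixed block (2.36 ± 1.26, adjusted p = 0.432) and, narrowly, with rat number as a replicate block (2.47, 0.0503). It was also lost, leaving 0 genes, without alpha rat 1, 2 or 5 or Control rat 1, 2, 4 or 5. Cxcl10 became called in delta without delta rat 2 (2.68, adjusted p = 0.0463) or rat 5 (2.91, 0.0137), and in gamma-enriched without gamma-enriched rat 2 (2.63, 0.0206) or Control rat 1 (2.07, 0.0338).

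In all 4 genes the means thus ran highest in NMBA, then through the tocopherol groups, to lowest in Control. For Cxcl9 they were −0.08 ± 0.72 in alpha, −0.45 ± 1.12 in delta, −0.51 ± 1.12 in gamma-enriched, 1.78 ± 0.72 in NMBA and −1.84 ± 0.42 in Control (SD, n = 5 each). Cxcl10 averaged −2.46 ± 0.58 in alpha, −2.43 ± 1.14 in delta, −2.77 ± 1.29 in gamma-enriched, −0.57 ± 0.72 in NMBA and −4.93 ± 0.38 in Control. For Cxcl11 the means were −3.56 ± 0.21, −3.67 ± 0.85, −4.12 ± 1.06, −1.67 ± 0.71 and −4.93 ± 0.47 in the same order of groups, and for Cxcr3 −3.55 ± 0.60, −3.66 ± 0.85, −3.83 ± 0.75, −2.10 ± 0.80 and −4.00 ± 0.43. The spread within delta and gamma-enriched was wider than within Control in every gene.

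The tocopherols share a chromanol ring and a saturated side chain, and differ in how many methyl groups the ring bears and at which positions. Whether their doses matched is not stated. Over 3 pairs of tocopherol groups limma called 0 of the 4 genes, 0 of them at an unadjusted p under 0.05, and the adjusted p over all genes was 0.523 or higher. Called genes of either direction made up 0% of all genes for delta against alpha, 1.69% for gamma-enriched against alpha and 0% for gamma-enriched against delta. At an unadjusted p under 0.05 there were 599, 1877 and 510 of all 12343 genes in the same order. Delta minus alpha ran from −0.38 (Cxcl9, 95% interval −1.43 to 0.68) to 0.03 (Cxcl10, −1.07 to 1.12). Gamma-enriched minus alpha ran from −0.56 (Cxcl11, −1.45 to 0.34) to −0.28 (Cxcr3, −1.14 to 0.59). Gamma-enriched minus delta ran from −0.45 (Cxcl11, −1.34 to 0.44) to −0.06 (Cxcl9, −1.12 to 0.99). These intervals reach beyond 1 log2 unit in at least one direction, and a p that misses the threshold does not show that the tocopherols act alike.

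The 4 genes also varied together among rats of the same group. After each group's mean was removed, Cxcl9 and Cxcl10 correlated with Pearson's r = 0.868 and Spearman's rho = 0.82 over 25 rats (permutation within groups, adjusted p = 9e-05 and 0.00024 over 6 pairs), and r was 0.791 without the 2 rats farthest from the median. Cxcl9 and Cxcl11 gave r = 0.81 and rho = 0.774 (adjusted permutation p = 9e-05 and 0.00024, r = 0.706 without the 2 rats), and Cxcl10 and Cxcl11 gave 0.807 and 0.787 (0.00039 and 0.00018, 0.675). With the receptor, r and rho were 0.771 and 0.702 for Cxcl9 (adjusted permutation p = 0.00039 and 0.00098, r = 0.773 without the 2 rats), 0.646 and 0.608 for Cxcl10 (0.0041 and 0.0061, 0.635) and 0.583 and 0.572 for Cxcl11 (0.012 and 0.0094, 0.667). Each pair was positive within slide 1, slide 2 and slide 3 (8 rats each), with r between 0.5 and 0.922. The rats behind this were partly the same: alpha rat 4, delta rat 5 and NMBA rat 4 were the lowest of their groups in all 4 genes.

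Over all 25 arrays, group differences included, the genes whose pattern was most like a ligand's were the other ligands and Ubd, an interferon-inducible ubiquitin-like modifier. Cxcl9 had r = 0.942 with Cxcl10, 0.939 with Ubd, 0.937 with Cxcl11, 0.921 with Cd27, which encodes a T cell co-stimulatory receptor, and 0.915 with Ctsw, a cathepsin of cytotoxic lymphocytes. For Cxcl10 the order was Cxcl9 (0.942), Ubd (0.926), Cxcl11 (0.915), Cd27 (0.857) and the Fc receptor gene Fcgr3a (0.85), and Cxcl11 was followed after the other ligands by Ubd (0.915), Cd27 (0.897) and Ctsw (0.876). For Cxcr3 the top 5 held no ligand: they were Gzmm, a granzyme of cytotoxic lymphocytes (0.956), the Toll-like receptor gene Tlr11 (0.945), Cd27 (0.931), the chemokine gene Ccl4 (0.923) and Calhm6 (0.918). With group means removed, Cxcr3 had r = 0.919 with Gzmm, 0.922 with Tlr11 and 0.893 with Cd27, above its 0.771 with Cxcl9, the closest ligand. Cxcl9 then had 0.846 with Ubd and 0.825 with Cd27, between its 0.868 with Cxcl10 and 0.81 with Cxcl11. Varying together within groups was thus not particular to the 4 genes. These are descriptions over arrays that share groups and slides.

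None of the protein-coding genes beside the ligand cluster was called. The 3 protein-coding genes before Cxcl11 were Scarb2, a lysosomal membrane protein gene, the nucleoporin gene Nup54 and the ADP-ribosyltransferase gene Art3, with NMBA minus Control at −0.09, 0.17 and −0.16 log2 units (limma adjusted p = 0.831, 0.681 and 0.908). The 3 after Cxcl9 were Sdad1, the lipid amidase gene Naaa and the phosphatase gene Ppef2, at 0.28, 0.35 and −0.09 (adjusted p = 0.589, 0.342 and 0.935). Limma called 0 of these 6 genes in NMBA against Control and 0 in each tocopherol group against NMBA, where their differences lay between −0.43 and 0.45. Groups did not overlap in Naaa for NMBA against Control (higher, as in 2.56% of genes) and for delta against NMBA (lower, 4.61%). They also did not overlap in Scarb2 for gamma-enriched against NMBA, where it was higher. At an unadjusted p under 0.05 the counts of these 6 genes were 1 in NMBA against Control, 2 in alpha, 1 in delta and 1 in gamma-enriched against NMBA. Over all 12343 genes they were 1620, 2266, 2519 and 3361 in the same order.

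**Figure D3:**
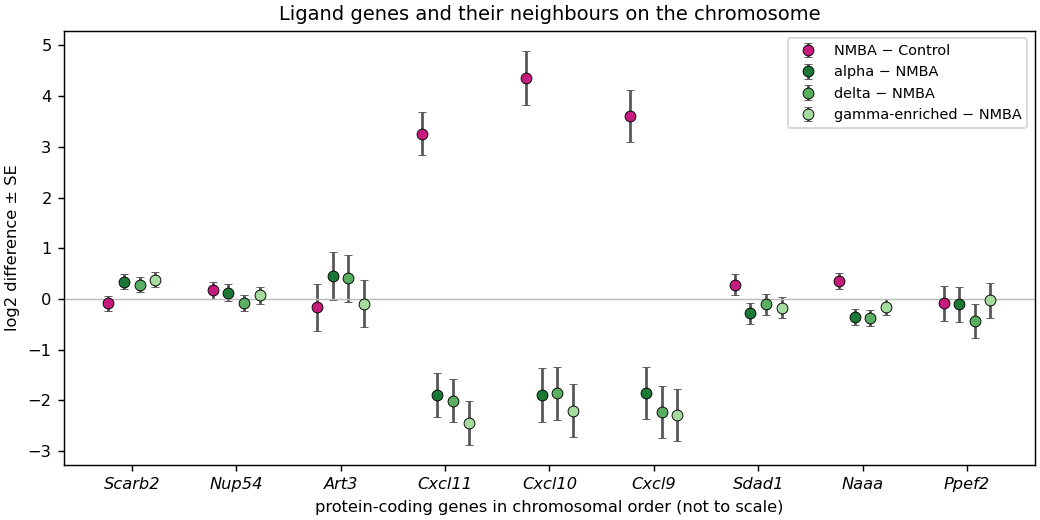
Log2 difference ± SE (vertical axis) of the 3 ligand genes and the 3 protein-coding genes on each side, in chromosomal order and not to scale, for NMBA against Control and each tocopherol group against NMBA. The ligand genes stand between 3.26 and 4.36 for NMBA against Control, and their neighbours between −0.16 and 0.35.

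Markers of T cells and cytotoxic lymphocytes moved in the same direction as the 4 genes. In bulk tissue RNA, fewer cells of a type and less RNA per cell cannot be told apart. Of 16 T cell markers tested, 9 rose in NMBA against Control and 0 fell, with a list median of 1.28 against 0.07 over all genes. Cd27 was above background on 0 Control arrays and was at least 9.36-fold higher (limma adjusted p = 0.00524). The T cell receptor complex genes Cd3d and Cd3e rose by 2.25 and 2.13 (0.0101 each) and the co-receptor gene Cd8b by 2.24 (0.00507), while its partner Cd8a was at 0.27 (0.81). Of 11 cytotoxic markers 5 rose, among them Ctsw by 2.83 (0.000539) and the granzyme genes Gzmb by 2.35 (0.0064), Gzmk by 2.33 (0.032) and Gzmm by 2.30 (0.00328).

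The mean T cell marker score, the average deviation of the 16 markers from their means over all arrays, ran from −0.76 to 0.42 in alpha rats, −0.82 to 0.36 in delta rats, −1.12 to −0.21 in gamma-enriched rats, 0.14 to 1.65 in NMBA rats and −0.62 to 0.27 in Control rats. The cytotoxic score ran from −1.36 to 0.36, −0.92 to 0.39, −1.26 to 0.18, −0.06 to 1.82 and −0.78 to −0.07 in that order of groups. NMBA rat 4 had the lowest NMBA value of both scores, as it did for the 4 genes. Alpha rat 4 and delta rat 5 were likewise the lowest of their groups in both. In scores made the same way, alpha rat 4 was also lowest in macrophage (−1.05), endothelial (−0.85), fibroblast (−0.68) and muscle (−0.63) markers. Of these lists, delta rat 5 was lowest only in macrophage markers (−0.57), and NMBA rat 4 in none. They were picked after their values were seen. Against NMBA, T cell markers fell in 6, 8 and 12 of 16 in alpha, delta and gamma-enriched rats, and cytotoxic markers in 7, 6 and 10 of 11. The part of lymphocyte number in the chemokine results was not tested.

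Cxcr3 was set against the CD3 genes in each rat to ask whether the receptor moved by more or less than the T cell receptor complex. The mean of Cd3d, Cd3e and Cd3g differed by 2.02 between NMBA and Control and Cxcr3 by 1.90, so that Cxcr3 minus CD3 was −0.96 ± 0.54 in NMBA rats and −0.84 ± 0.42 in Control rats (SD, n = 5; difference −0.12, exact permutation p = 0.69). The same quantity was higher than in NMBA by 0.21 in alpha (exact p = 0.54), 0.26 in delta (0.413) and 0.38 in gamma-enriched rats (0.262), each with an adjusted p of 0.69 over 4 comparisons (two-sided exact permutation tests). With 5 rats against 5 the smallest p the test can give is 0.00794. No difference between receptor and CD3 genes was detected at this size. With the mean of all 16 T cell markers in place of CD3 every sign turned, to 0.50 for NMBA against Control and −0.31, −0.28 and −0.18 for alpha, delta and gamma-enriched against NMBA (adjusted exact p from 0.0952 to 0.516).

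**Figure D4:**
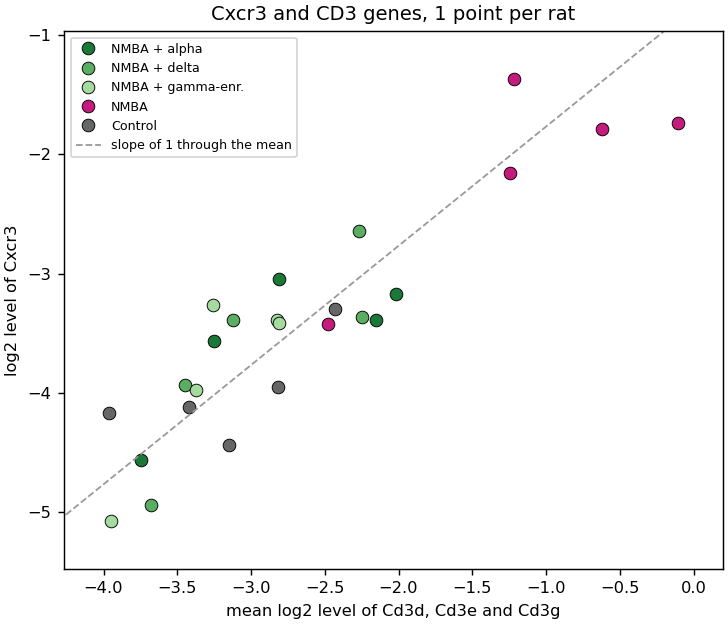
Log2 level of Cxcr3 (vertical axis) against the mean log2 level of Cd3d, Cd3e and Cd3g (horizontal axis), 1 point per rat, with a dashed line of slope 1 through the mean of all rats. NMBA rats 1, 2, 3 and 5 lie at the upper right, and NMBA rat 4 lies among the rats of the other groups.

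Of the marker lists for other cell types, limma called 0 genes in each for NMBA against Control. The lists were macrophages (13 tested, median 0.22, 1 gene at an unadjusted p under 0.05), dendritic cells (3, 0.56, 2 genes), endothelium (6, −0.30, 0 genes), fibroblasts (6, −0.44, 2 genes), B cells (4, 0.26, 0 genes), neutrophils (3, 0.15, 0 genes), muscle (6, −0.06, 0 genes) and squamous epithelium (10, 0.18, 4 genes). Among them Cd68 and Adgre1 of macrophages were at 0.25 and −0.34, Clec9a and Zbtb46 of dendritic cells at 2.05 and 0.51, and Pecam1 and Cdh5 of endothelium at −0.20 and 0.10. Krt5 and Krt14 were at 0.43 and 0.41, Col1a1 and Col1a2 of fibroblasts at −0.73 and −0.20, and Des and Acta2 of muscle at 0.24 and −0.10. Cd79b of B cells was at 0.43, and S100a8 and S100a9 of neutrophils at 0.15 and −0.27. Among macrophage markers 0, 1 and 4 of 13 fell in alpha, delta and gamma-enriched rats against NMBA, and among squamous markers 1, 1 and 4 of 10. Chosen after their values were seen, the macrophage genes were Marco in delta and C1qa, Lyz2, Fcgr1a and Aif1 in gamma-enriched rats, and the squamous genes were Krt5 in alpha, Krt4 in delta and Krt14, Krt4, Krt13 and Tgm1 in gamma-enriched rats. Dcn of fibroblasts fell by 0.77 in gamma-enriched rats, and Cd79b, above background on 0 gamma-enriched arrays, was at least 3.32-fold lower there, both also chosen after their values were seen. Limma called 0 neutrophil, endothelial or muscle markers in any tocopherol group against NMBA, with up to 4 of a list at an unadjusted p under 0.05 (muscle, gamma-enriched). The part of these cell types in the chemokine results was not tested.

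Upstream of the ligands, the gene of interferon gamma itself, Ifng, was too dim to test: it was well above background on 0 alpha, 0 delta, 1 gamma-enriched, 2 NMBA and 0 Control arrays. Of 19 tested genes of its pathway, 2 rose in NMBA against Control, with a list median of 0.51. Among them was the cytokine gene Il18 (0.68, limma adjusted p = 0.0127). The transcription factor genes Irf1 and Tbx21 stood at 0.94 (0.163) and 0.08 (0.887). Against NMBA, 4 pathway genes fell in alpha, 6 in delta and 6 in gamma-enriched rats. Irf1 fell in each of them (by 1.29, 1.16 and 1.46), and so did Stat2 (by 0.89, 0.91 and 0.69). In alpha Socs3, an inhibitor of cytokine signalling, fell by 1.67; Stat2 and Socs3 were named after their values were seen. Tbx21 was at −0.47, −0.52 and −0.29, not called.

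Genes known to be induced by interferon gamma rose alongside the ligands in 6 of 16 tested (median 0.71): Ubd by 3.28 (limma adjusted p = 0.000536), the immunoproteasome genes Psmb8 by 1.38 (0.0127) and Psmb9 by 1.33 (0.0167), and the MHC class II regulator Ciita by 1.22 (0.00892) were the 4 with the largest change. Against NMBA, 8, 6 and 13 of the 16 fell in alpha, delta and gamma-enriched rats, with medians of −0.89, −0.92 and −1.02. Genes induced by type I interferons rose in 4 of 16 (median 0.64): Isg15, a ubiquitin-like protein, by 2.39 (6.4e-05), the antiviral enzyme gene Oas1a by 2.22 (0.00183), the transcription factor Irf7 by 1.31 (0.0012) and the RNA sensor Dhx58 by 1.07 (0.00564). Of these 16, 5 fell in alpha, 4 in delta and 5 in gamma-enriched rats against NMBA, with medians of −0.65, −0.71 and −0.73. Named after their values were seen, Isg15, Irf7, Bst2 and Dhx58 fell in all 3 groups, Rsad2 in alpha and Ifi27 in gamma-enriched rats. Many of these genes respond to both kinds of interferon. Against Control, limma called 0 of 16 genes of either list in any tocopherol group. At an unadjusted p under 0.05 there were 1, 2 and 3 of 16 in alpha, delta and gamma-enriched rats in each list. All of these were higher than Control except 2 interferon gamma induced genes that were lower in gamma-enriched rats. Of the 19 pathway genes, 1 was called higher than Control in each tocopherol group, against 0.535%, 0.138% and 0.3% of all genes for alpha, delta and gamma-enriched.

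For other chemokines, limma called 0 of 9 other CXC chemokine genes in NMBA against Control (0 at an unadjusted p under 0.05, median −0.65), and 0 in each tocopherol group against NMBA (0, 1 and 0 at an unadjusted p under 0.05 in alpha, delta and gamma-enriched rats). The neutrophil attractants Cxcl1 and Cxcl2 stood at −0.49 and −1.01 in NMBA against Control. Of 13 other chemokine receptor genes 0 were called (2 at an unadjusted p under 0.05, median 0.01), with Cxcr2 at 0.05 and Cxcr4 at 0.31. Against NMBA, 1 receptor gene fell, Ccr6 in gamma-enriched rats (−0.82, adjusted p = 0.0379), named after its value was seen. Of other genes tied to CXCR3 or its ligands, the platelet chemokine gene Pf4, whose product binds a form of CXCR3 in humans, was at −0.56, the peptidase gene Dpp4, whose product trims the ligands, at 0.04, and the scavenger receptor gene Ackr3, whose product binds CXCL11, at −0.20; limma called 0 of these 3, with 0 at an unadjusted p under 0.05, also in the tocopherol groups against NMBA.

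**Figure D5:**
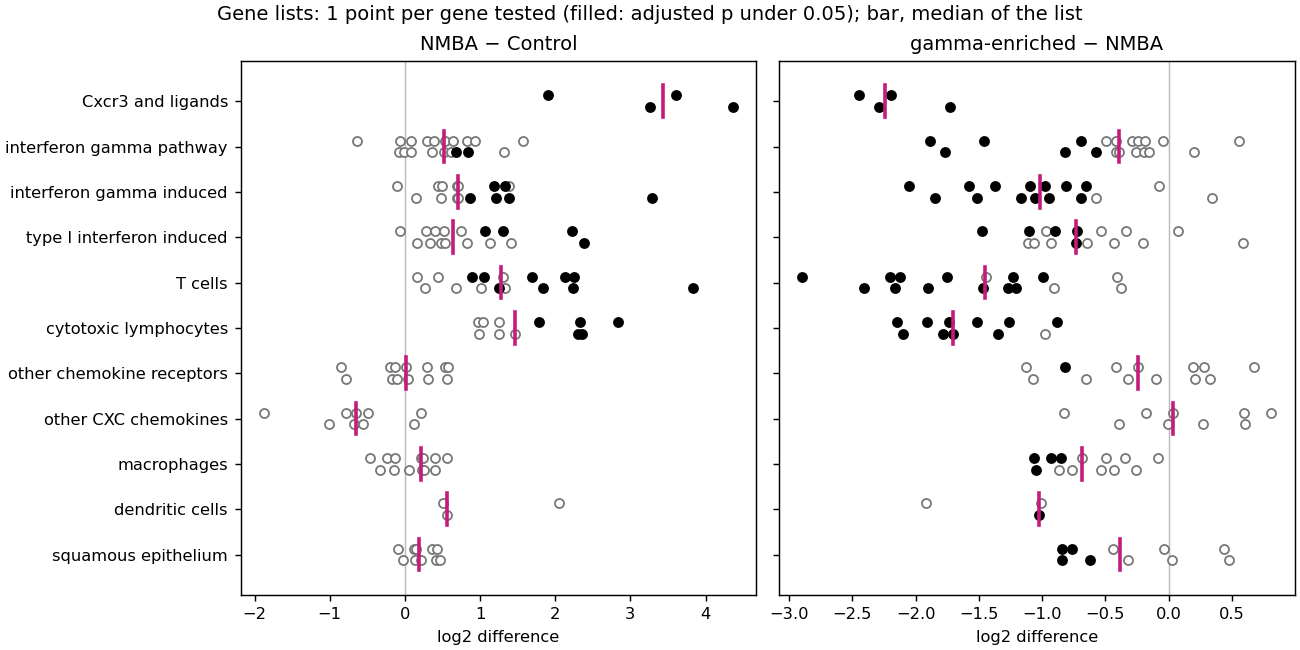
Log2 difference (horizontal axis) of each tested gene in 11 gene lists (rows), for NMBA against Control (left) and gamma-enriched against NMBA (right), filled where the adjusted p is under 0.05, with a bar at the list median. In the left panel the 4 CXCR3 system genes lie between 1.90 and 4.36, and the list medians are 1.28 for T cell markers and −0.65 for other CXC chemokines.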

How the data were processed

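Total RNA was prepared with TRIzol and labelled with Cy3 after linear amplification, per the labels' protocols. The array files hold fluorescence intensity, background-subtracted by Agilent Feature Extraction 11.5.1.1 per the file headers (10.7 per the submitters' processing notes). The deposited value table is on a log2 scale with each array's 75th percentile near 0, and served as an alternative. No column of other samples was present (0). Here, outlier spots were removed, the spots of each probe were averaged as log2 of the processed signal, and the array's 75th percentile over non-control probes subtracted. Probes well above background on 5 or more arrays were kept, and 1 probe stood for each gene, the kept one of highest mean. Probes were named through RefSeq (GRCr8): 18355 of 30367 matched 1 symbol, 12012 none. Coordinates are RefSeq's; the array design uses rn4.

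Group means were fitted with limma 3.58.1 in R 4.3.3 to all 25 arrays (20 residual degrees of freedom), without slide or rat number, and 10 contrasts were tested (two-sided, Benjamini-Hochberg). A value ± SE is limma's; the number of arrays limits the precision. The fit was tested on simulated data. Rat numbers were not taken to pair the groups. Of 50 same-numbered pairs, 12 had a correlation of deviations over 0.1 (−0.584 to 0.529), and differently numbered pairs were not counted.

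The 4 genes and all lists were chosen with earlier results of these data known, and the study is known to have drawn the CXCR3 theme from these samples, so a list's direction is not independent evidence. Named list genes were up to 4 called members with the largest change in NMBA against Control, otherwise the first 2 tested, plus Ifng, Irf1, Tbx21, Cd3e, Cd8a, Dpp4, Ackr3 and Pf4; some genes that the rule selects are not reported here. Likeness used the 5 genes with the highest r, and neighbours the 3 protein-coding genes on each side. Alternatives were normexp background correction (on the median signal, offset 50), quantile normalization, the deposited table, other probe filters, slide blocks, single slides, rat number as a block, array weights and leaving out each rat.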

Additional observations from a re-analysis of the deposited data

Results flagged for a closer look

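Control rat 1 had the lowest Cxcl11 level of its group, −5.76, while the other 4 Control rats lay between −4.83 and −4.59. Its gap to the nearest rat was 0.789 of the group's whole range, above the critical value of 0.71 for 5 rats. Of 25 groups examined this was the only 1 to stand out. Chance gives about 1 in 20, so 1 of 25 is near the share that chance alone gives. Control rat 1 was also the Control rat on slide 2. Without it Cxcr3 was not called in NMBA against Control (1.79, limma adjusted p = 0.0565).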

How the results depend on the processing

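Over the alternatives that did not leave out single rats, 110 of 125 counts of the 4 genes called stayed within 1.5 times the reported count. In the same alternatives 434 of 500 log2 differences kept their direction and side of the threshold. With the deposited value table or outlier spots kept, all 40 differences did so in each case. Leaving out 1 rat moved the count past that bound in 8 of 10 fits for alpha against NMBA. It did so in 5 of 10 for delta and 0 of 10 for gamma-enriched against NMBA. Against Control it moved 7, 2 and 2 of 10 in alpha, delta and gamma-enriched rats, and 0 of 10 in NMBA rats. Calls changed when slide was a fixed block. In NMBA against Control, drawn from slide 3 alone, 3 of the 4 genes were called and Cxcr3 was lost. Limma called 0 of the 4 genes in alpha, 0 in delta and 0 in gamma-enriched rats against NMBA, and 0 in alpha against Control. With this block, these last comparisons run only through Control rat 1. Lost calls there cannot be told apart from lost precision. In that fit Cxcr3 turned to −0.419 in alpha and −0.005 in delta against Control. Delta minus alpha turned to 0.149 in Cxcl9, 0.193 in Cxcl11 and 0.414 in Cxcr3. These equal the values within slide 1 by design, because all alpha rats were on that slide. Gamma-enriched minus alpha turned to 0.871 in Cxcl9, 0.176 in Cxcl10, 0.2 in Cxcl11 and 1.029 in Cxcr3. Gamma-enriched minus delta turned to 0.722 in Cxcl9, 0.007 in Cxcl11 and 0.615 in Cxcr3. These equal the values within slide 2 by design, because all gamma-enriched rats were on it. The −0.005 of Cxcr3 in delta against Control also came from slide 2 alone, from delta rats 4 and 5 and Control rat 1. The single-slide values were chosen after seeing the data.

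Against Control, 1 of the 4 genes was called in delta with quantile normalization, with only probes above background on all arrays, with the mean of probes, with slide as a random block and with array weights. In gamma-enriched rats against Control 1 was called with quantile normalization and 1 with slide as a random block, and 2 with array weights, which also called 2 in alpha. Over all genes, quantile normalization called 27 in delta and 69 in gamma-enriched against Control, where the main fit called 20 and 69. Counts over all genes in the other settings are not reported here for these comparisons, and array weights raised them in each comparison counted below. With rat number as a replicate block 1 of the 4 genes was called in alpha against NMBA and 0 in alpha against Control. The numbers showed no pairing of rats. In 11 of 100 matches examined a rat correlated best with its own number, and with 5 rats per group chance gives 1 in 5. Without 1 rat the counts called ranged from 3 to 4 for NMBA against Control, 1 to 4 for alpha, 0 to 4 for delta and 4 to 4 for gamma-enriched against NMBA, and 0 to 1 for each tocopherol group against Control.

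Differences among tocopherols, none of them called, changed sign in further settings: Cxcl9 gamma-enriched minus delta was 0.058 with normexp, Cxcl10 delta minus alpha −0.015 with quantile normalization, and array weights gave −0.223 for Cxcl10 delta minus alpha and 0.5, 0.002 and 0.319 for Cxcl9, Cxcl10 and Cxcr3 gamma-enriched minus delta. Without 1 rat, delta minus alpha ran from −0.676 to 0.037 in Cxcl9, −0.233 to 0.435 in Cxcl10, −0.315 to 0.184 in Cxcl11 and −0.362 to 0.214 in Cxcr3. Gamma-enriched minus alpha ran from −0.659 to 0.155 in Cxcl10 and −0.531 to 0.036 in Cxcr3, and gamma-enriched minus delta from −0.476 to 0.305 in Cxcl9, −0.745 to 0.127 in Cxcl10 and −0.491 to 0.144 in Cxcr3. Cxcr3 minus the T cell genes was 0.504, −0.306, −0.284 and −0.183 with all T cell markers in place of CD3, and without 1 rat it ran from −0.325 to 0.047 for NMBA against Control, 0.040 to 0.411 for alpha, 0.091 to 0.462 for delta and 0.210 to 0.581 for gamma-enriched against NMBA. The cause of these changes was not tested.

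Counts over all genes moved more: 197, 465, 385 and 1202 genes of either direction were called in NMBA against Control and in alpha, delta and gamma-enriched against NMBA, 54, 1, 1 and 1 with slide as a fixed block, 2297, 1405, 3047 and 5405 with array weights, and 199, 2155, 1381 and 3548 with no filter on dim probes. Quantile normalization moved the median gene of gamma-enriched against NMBA to −0.04, against −0.13 as reported. The 4 genes were well above background on every array, but the 2 spots of Cxcl11 differed by up to 1.17 log2 units on 1 array.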

Other observations

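Replicate spots of the same probe differed by a median of 0.14 log2 units for Cxcl9, 0.22 for Cxcl10, 0.29 for Cxcl11 and 0.10 for Cxcr3 over 25 arrays, below the spread between rats of 1 group except for Cxcl11 in alpha rats, whose SD was 0.21. The largest gap between the 2 spots of a probe on 1 array was 1.17, in Cxcl11.

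Dendritic cell and B cell lists were small, at 3 and 4 genes tested. Against NMBA, Zbtb46, a transcription factor gene of classical dendritic cells, fell by 0.77 in delta (limma adjusted p = 0.044) and by 1.02 in gamma-enriched rats (0.00427), and was at −0.26 in alpha rats (0.551). It was named after its values were seen.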
